A study of Mus musculus and other sequences with 2 samples.

Results

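The TaqMan rodent array held 25 mouse-named assays for miRNAs of the miR-506 superfamily, out of 750 miRNA assays in all. They were chosen by name alone, as every mouse assay for miR-201, miR-463, miR-465, miR-470, miR-471, miR-509, miR-547, miR-741, miR-742, miR-743, miR-871, miR-878, miR-880, miR-881 or miR-883, of any letter and arm, that carries no #, the sign the array uses for a minor arm. Of the 25, 19 were on card A and 6 on card B. Each assay was read once in media conditioned by CD1 mouse embryos and once in blank medium, so that the study provided 1 sample per medium. For the conditioned sample, 25 embryos were cultured together in an 8 μL microdroplet of BSA-free KSOM over the 17 h that ended 116 h after hCG injection. Per the methods they were compacted or cavitating morulae at the start, and per the labels they were blastocysts. They came from superovulated females mated with CD1 males. The study's methods give the age of the females as a range that starts at 3 weeks. The blank sample was the same medium cultured for the same time without embryos. In place of BSA both media held a polymer that the labels name polyvinylacetate. The study names it PVA, its abbreviation for polyvinyl alcohol. Because all 25 embryos shared 1 microdroplet, the data give no spread between embryos or cultures, and no test of conditioned against blank medium was possible.

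The miR-506 superfamily is a group of short, fast-evolving miRNAs encoded by many neighbouring hairpins on the X chromosome, between the protein-coding genes Slitrk2 and Fmr1. In the mouse its members are known chiefly from the testis, where they are expressed in spermatogenic cells and in part also in Sertoli cells. Like other miRNAs, each hairpin is cut into a 5p and a 3p arm, and the loaded arm recognizes target transcripts mainly through its seed. No testis or sperm sample is part of the series, so the spermatogenic expression of the cluster is background and was not measured.

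The RefSeq annotation of GRCm38.p6 lists 22 miRNA genes in this stretch of the X chromosome, all 22 on the minus strand and 0 overlapping another annotated gene. They lie in 2 blocks. Counting hairpins that give the same mature name once, the array covered 16 in the block nearer Slitrk2, with 21 of the 25 assays, and 3 in the block nearer Fmr1, with the other 4. For 13 of the 25 assays the name matched a mature sequence in RefSeq. The other 12 names state no arm, so that both arms of the hairpin are candidates.

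The miR-465 assays are shown because they differed in detection although their 5p sequences are nearly alike. In each sequence the seed, bases 2 to 8, is in capitals, and all 3 share it:

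mmu-miR-465a-5p: uAUUUAGAauggcacugauguga

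mmu-miR-465b-5p: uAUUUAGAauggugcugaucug

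mmu-miR-465c-5p: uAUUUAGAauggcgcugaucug

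Counted from the 5′ end, miR-465b-5p and miR-465c-5p differ by U13C only. Between miR-465b-5p and miR-465a-5p there are 3 differences over the 22 shared positions, U13C, G14A and C20G, and miR-465a-5p is 23 bases long. In GRCm38.p6, the annotated copies lie on the minus strand at chrX:66839099-66839121 for miR-465a-5p in Mir465, at chrX:66835811-66835832 for miR-465b-5p in Mir465b-2, and at chrX:66826004-66826025 and chrX:66832566-66832587 for miR-465c-5p in Mir465c-1 and Mir465c-2. The sequences of miR-465b-5p and miR-465c-5p are each held by 2 hairpins, so an assay cannot tell which gene a molecule came from. How far the assays separate sequences this similar was not tested. The 3p sequence that miR-465a, miR-465b and miR-465c share is held by 5 hairpins.

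The miR-743 hairpins and miR-741 are shown because they were the members of card A with a Ct in both media. The assay name mmu-miR-743a states no arm, and neither does mmu-miR-741:

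mmu-miR-743a-5p: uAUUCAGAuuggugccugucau

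mmu-miR-743a-3p: gAAAGACAccaagcugaguaga

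mmu-miR-743b-5p: uGUUCAGAcugguguccauca

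mmu-miR-743b-3p: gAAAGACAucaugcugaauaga

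mmu-miR-741-5p: uACGUAGAuugguaccuaucaug

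mmu-miR-741-3p: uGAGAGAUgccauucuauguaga

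The 3p arms of miR-743a and miR-743b share their seed and differ by C9U, A12U and G18A. Their 5p arms do not share it, since one of their 5 differences, A2G, falls inside the seed. miR-743a-5p instead has the seed of miR-871-5p, and each of these 2 seeds is held by only 2 mature mouse miRNAs in RefSeq. The miR-743a arms lie at chrX:66776794-66776815 and chrX:66776760-66776781, those of miR-743b at chrX:66777302-66777322 and chrX:66777266-66777287, and those of miR-741 at chrX:66796847-66796869 and chrX:66796809-66796831, in each case the 5p arm first.

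The last set holds the candidate arms of the shared assays on card B and the pair of sequences with a Ct below 35 in blank medium only:

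mmu-miR-880-5p: uACUCAGAuugauaugaguca

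mmu-miR-880-3p: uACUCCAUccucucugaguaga

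mmu-miR-463-5p: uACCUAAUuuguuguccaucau

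mmu-miR-463-3p: uGAUAGACaccauauaagguag

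mmu-miR-509-3p: uGAUUGACauuucuguaaugg

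mmu-miR-883b-5p: uACUGAGAauggguagcaguca

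They lie on the minus strand at chrX:66800577-66800597 and chrX:66800540-66800561 for miR-880, at chrX:66799273-66799294 and chrX:66799236-66799257 for miR-463, at chrX:68010115-68010135 for miR-509-3p and at chrX:66789936-66789957 for miR-883b-5p. Over the whole stretch, RefSeq lists 40 mature names with 38 different sequences and 32 different seeds. Shared seeds are therefore found only between near copies such as the miR-465, miR-743 and miR-883 pairs, and between miR-743a-5p and miR-871-5p.

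Each well gave a Ct, the PCR cycle in which its fluorescence passed a threshold, so that less template gives a later Ct. An assay was taken as detected at a Ct below 35, and a well that never crossed the threshold is called undetermined. The error between wells was taken from the small nuclear RNA U6, measured in 4 wells per card. On card A the mean Ct of U6 was 20.90 ± 0.68 (SD, n = 4 wells) in conditioned medium and 24.98 ± 3.22 in blank medium, the latter with 1 well at 20.2 and the other 3 between 26.3 and 27.1. On card B the means were 19.96 ± 0.83 and 27.04 ± 0.23. Where 2 assays shared 1 name and both were detected in a sample, their Ct differed by 1.25 to 14.72 cycles, with a median of 3.73 over 8 pairs of wells. Both measures cover wells or assays within a sample, and neither gives the spread between samples of 1 medium.

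In conditioned medium, 7 of the 25 assays (28%) had a Ct below 35, compared with 37.3% of all 750 assays. In blank medium 8 of the 25 (32%) did, compared with 29.1%. Both samples shared 6 of the assays (24%, against 23.5% of all), 1 was detected in conditioned medium only (4%, against 13.9%), and 2 in blank medium only (8%, against 5.60%). The remaining 16 assays were not detected in either medium. By a Ct below 35 alone, the members were therefore no more frequent in media that had held embryos than in blank medium, a description of 1 sample each. The study also set a limit on the height of the fluorescence signal, which was not applied here. With both limits, the study reported far fewer detected sequences in each medium, above all in blank medium. Many of the calls by Ct alone therefore did not pass both limits. How many of the member calls in each medium would pass was not tested. By card, 4 of 19 members (21.1%) were detected in each medium on card A, where the shares of all assays were 39.8% in conditioned and 32.6% in blank medium. On card B, 3 of 6 members (50%) were detected in conditioned medium and 4 of 6 (66.7%) in blank medium, where the shares of all assays were 34.8% and 25.5%. The detected members had a median Ct of 27.2 in conditioned medium and 25.5 in blank medium, and the medians of all detected assays were 25.5 and 22.8.

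**Figure D1:**
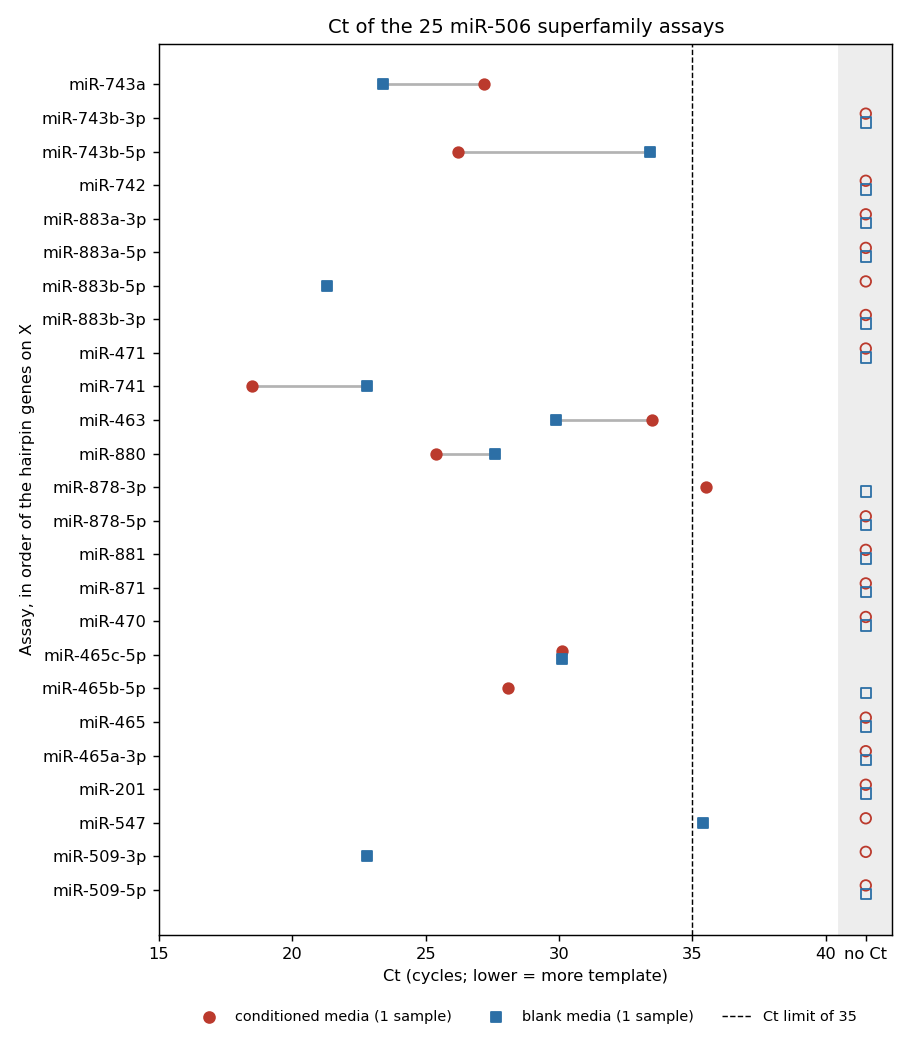
The horizontal axis gives the Ct in cycles and each line is 1 of the 25 assays, in the order of the hairpin genes on the X chromosome; filled circles stand for conditioned medium, filled squares for blank medium, and open symbols in the grey band for wells with no Ct, each from 1 well. Both symbols are open for 14 of the 25 assays, and only miR-465b-5p has a circle left of the limit of 35 and an open square.

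The miR-465 family, the most expanded one of the cluster, had 4 assays. mmu-miR-465b-5p had a Ct of 28.1 in conditioned medium and was undetermined in blank medium. It was the only member detected in conditioned medium alone, and ranked 187 by Ct among the 280 assays detected there, where rank 1 is the lowest Ct. The study listed miR-465b-5p too as exclusive to conditioned medium, from this same array and with its limit on signal height applied. miR-465c-5p, which the deposited values spell mmu-miR-465C-5P, had a Ct of 30.1 in conditioned medium and 30.1 in blank medium. Its difference of 0.05 cycles was smaller than the spread of U6 wells on card B, 0.86 cycles when the SDs of both media are combined. The assay named mmu-miR-465 and mmu-miR-465a-3p, the arm common to the miR-465a, miR-465b and miR-465c hairpins, were undetermined in both media. Thus of 2 assays whose targets differ at 1 base, one was read in conditioned medium alone and the other at the same Ct in both. They were on different cards, with separate reverse transcription and pre-amplification.

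The miR-743 hairpins are direct neighbours and gave opposite differences. mmu-miR-743b-5p had a Ct of 26.2 in conditioned medium and 33.4 in blank medium. It was 7.24 cycles earlier in conditioned medium, and was the only member past 5 cycles in either direction. Among all assays detected in both media, 10.8% were more than 5 cycles earlier and 11.4% more than 5 cycles later in conditioned medium. On its card 14 of 94 shared assays were at least as far from equal, so a difference of this size was not rare. The other arm of the hairpin, mmu-miR-743b-3p, was undetermined in both media. mmu-miR-743a had a Ct of 27.2 in conditioned medium and 23.4 in blank medium, and was therefore 3.85 cycles later in conditioned medium. On card A 36 of 94 shared assays were at least as far from equal as miR-743a. Its difference was larger than the spread of U6 wells on the card, 3.29 cycles when the SDs of both media are combined. In blank medium that SD was 3.22 over all 4 wells and 0.49 over the 3 wells between 26.3 and 27.1. The median of 3.73 cycles between assays of the same name compares different assays within a sample. It is therefore no error for the difference of miR-743a between media.

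The other member of card A with a Ct in both media was mmu-miR-741, the member with the lowest Ct in conditioned medium. Its Ct was 18.5 in conditioned medium and 22.8 in blank medium, which placed it at rank 73 of 280 and rank 107 of 218. It was 4.23 cycles earlier in conditioned medium, and 31 of 94 shared assays of the card were at least as far from equal. In conditioned medium the card A assays of miR-292-3p and miR-295 had later Ct values, 19.6 and 19.7. The study, however, placed the miR-290 cluster above every other sequence it detected. Whether Ct values of different assays rank the amounts of their miRNAs was not tested. On card B, mmu-miR-880 had a Ct of 25.4 in conditioned medium and 27.6 in blank medium, a difference of -2.18 cycles. mmu-miR-463 had a Ct of 33.5 in conditioned medium and 29.9 in blank medium, a difference of 3.60 cycles. At least as far from equal were 36 of 82 shared assays of card B for miR-880 and 24 of 82 for miR-463.

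Over the 6 members with a Ct below 35 in both media, 3 were earlier in conditioned medium and 3 were later. The median difference was -1.07 cycles, compared with 0.05 for all 176 shared assays, and the median size of the difference was 3.73 cycles, compared with 2.19. Among all 176 shared assays 85 were earlier and 91 later, so the split of the members was close to that of the array as a whole. One of the 3 later members was miR-465c-5p, at 0.05 cycles. Relative to the median of U6 on the same card, 5 of the 6 were later in conditioned medium, all but miR-743b-5p.

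**Figure D2:**
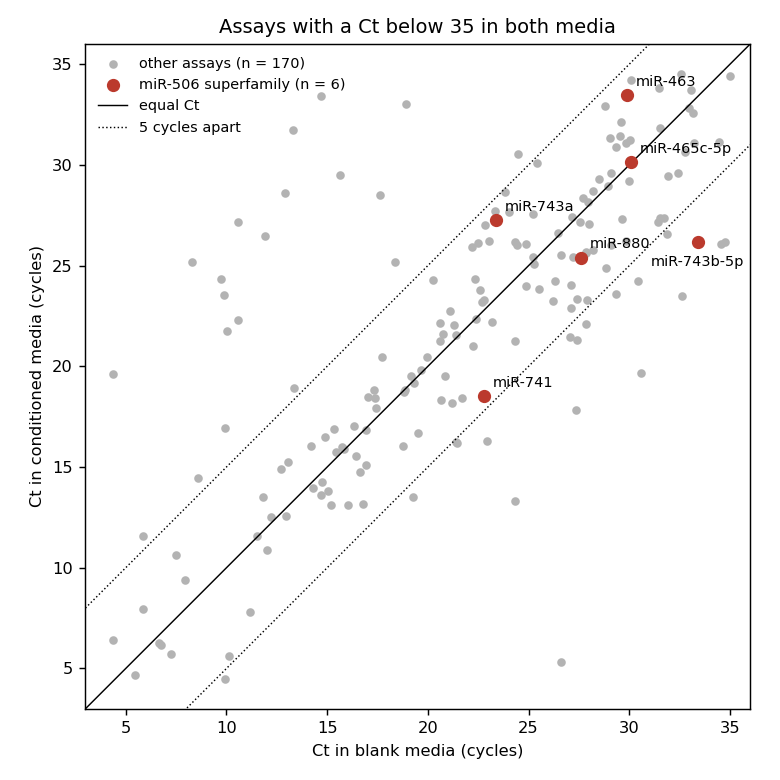
The axes give the Ct in cycles in blank medium (horizontal) and in conditioned medium (vertical) for every assay with a Ct below 35 in both; each point is 1 assay from 1 well per medium, and points below the solid line have an earlier Ct in conditioned medium. Of the 6 red points, 3 lie above and 3 below the line of equal Ct, and only miR-743b-5p lies outside the dotted lines at 5 cycles.

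A pair of members had a Ct below 35 in blank medium only. Whether they would also pass the study's limit on signal height was not tested. mmu-miR-509-3p had a Ct of 22.8 in blank medium and was undetermined in conditioned medium. miR-883b-5p, spelled mmu-miR-883B-5P in the deposited values, had a Ct of 21.3 in blank medium and was likewise undetermined in conditioned medium. Their ranks in blank medium were 110 and 94 of 218, and with miR-741 at rank 107 they were the 3 members of lowest Ct there. For both, the opposite arm, mmu-miR-509-5p and mmu-miR-883b-3p, was undetermined in both media. miR-509 is encoded in the block nearer Fmr1, and mmu-miR-509-3p was the only one of the 4 member assays of that block with a Ct below 35 in either medium.

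Near the limit, mmu-miR-878-3p had a Ct of 35.5 in conditioned medium and none in blank medium, and mmu-miR-547 had a Ct of 35.4 in blank medium and none in conditioned medium. The members closest to the limit on the other side were miR-463 in conditioned medium and miR-743b-5p in blank medium. The other 14 members were undetermined in both media, as were 392 of all 750 assays. Along the main block these were mmu-miR-742, mmu-miR-743b-3p, mmu-miR-883a-3p, mmu-miR-883a-5p, mmu-miR-883b-3p, mmu-miR-471, mmu-miR-878-5p, mmu-miR-881, mmu-miR-871, mmu-miR-470 and both remaining miR-465 assays. In the block nearer Fmr1 they were mmu-miR-201 and mmu-miR-509-5p. An undetermined Ct was not turned into an upper limit on the amount of RNA, since no dilution series accompanies the assays. Counting the 25 member assays alone, 9 of 19 hairpins were detected in either medium. In order of position they did not form 1 run, since miR-742, miR-883a, miR-471, miR-878, miR-881, miR-871 and miR-470, for which no member assay had a Ct below 35, lie between them, as do miR-465a, miR-201 and miR-547 before miR-509.

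The 5p and 3p arms, or the major and # arms, were both assayed for 10 hairpins, taking mmu-miR-465 as the 5p partner of mmu-miR-465a-3p. Both arms were detected for 1 of the 10, miR-463, in each medium. Its # arm had a Ct of 32.1 in conditioned medium and 29.6 in blank medium, later in conditioned medium by 2.56 cycles, as the major arm was by 3.60. In conditioned medium 1 arm alone was detected for 2 hairpins, miR-470 and miR-743b, and in blank medium for 4, which were these and miR-509 and miR-883b. For miR-470 it was the # arm, with a Ct of 5.62 in conditioned medium and 10.1 in blank medium, while mmu-miR-470 was undetermined in both. That Ct of the # arm was at rank 5 of 280 and rank 23 of 218. Both values are far earlier than the U6 means of card B, 19.96 in conditioned and 27.04 in blank medium. Whether so early a Ct measures template was not tested, and these ranks are not read as amounts. For 5 hairpins neither arm was detected in either medium.

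A further 9 assays of the same numbers were named for rat. Of these, 5 (55.6%) had a Ct below 35 in conditioned medium and 5 (55.6%) in blank medium, 4 of them (44.4%) in both. The shares of all 750 assays were 37.3%, 29.1% and 23.5%. All 4 rat-named assays of card B were detected in both media, and 1 of the 5 on card A in each medium. For 7 of the 9 a mouse assay had the same name, and in 4 of the 7 pairs the mouse and rat assays fell into the same class of detection. rno-miR-743a had a Ct of 28.5 in conditioned medium and 17.6 in blank medium, later in conditioned medium by 10.90 cycles, and thus in the same direction as mmu-miR-743a. rno-miR-880 had a Ct of 31.1 in conditioned medium and 29.8 in blank medium, a difference of 1.24 cycles, in the opposite direction to mmu-miR-880. rno-miR-547 had a Ct of 18.8 in conditioned medium and 18.9 in blank medium, where the mouse assay of that name had none and 35.4. rno-miR-743b had a Ct of 37.1 and 33.1, and rno-miR-878 one of 37.8 in blank medium alone. The rat sequences are not shown, and how far the rat assays read mouse miRNAs was not tested.

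To set the cluster beside other miRNAs, 3 lists were counted in the same way. Among 55 other mouse assays whose genes lie on the X chromosome, 18 (32.7%) were detected in conditioned medium and 12 (21.8%) in blank medium, with 7 in conditioned medium only and 1 in blank medium only. The gene was found for 546 of 675 mouse assays, so that this list is not complete. Of 8 assays for miR-34b, miR-34c and miR-449, miRNAs known from sperm and testis, 4 were detected in conditioned medium and 2 in blank medium. Within these, the Ct in conditioned medium was 27.9 for mmu-miR-34c, 24.9 for mmu-miR-449, 26.1 for mmu-miR-34b-3p and 34.1 for mmu-miR-34c#. In blank medium these gave no Ct, 28.9, 34.8 and 38.2. Of 8 assays for listed miRNAs of the embryonic miR-290 to miR-295 cluster, 8 were detected in conditioned medium, with a Ct from 19.6 to 29.9, and 0 in blank medium. The study had listed these names as exclusive to conditioned medium on this same array. Their split was therefore largely fixed by the choice of the list and is no independent result. The study's list of exclusive miRNAs also holds miR-34c and the member miR-465b-5p. With 1 sample per medium, none of these differences between lists was tested.

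**Figure D3:**
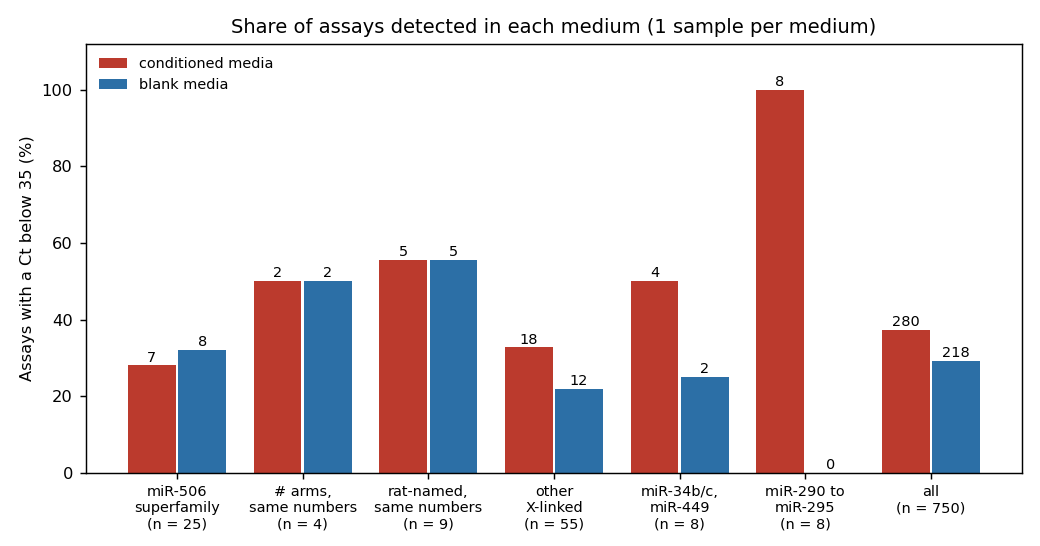
Bars give the percentage of assays with a Ct below 35 in conditioned medium (red) and blank medium (blue), 1 sample each, for each list of assays with its size n; the number above a bar is the count of assays. The miR-506 superfamily bars stand at 28% and 32%, below and above the 37.3% and 29.1% of all assays, and the miR-290 to miR-295 bars at 100% and 0%. The latter list holds names that the study had picked from this array as exclusive to conditioned medium.

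The direction of a Ct difference depended on the reference. U6 was itself earlier in conditioned medium, by 4.08 cycles on card A and by 7.07 on the other card. Taken relative to the mean of U6 on the same card, miR-743b-5p remained earlier in conditioned medium, with a difference of -3.16 cycles. miR-741 was then close to equal at -0.14 cycles, and the difference of miR-880 changed sign to 4.89 cycles. miR-743a, miR-463 and miR-465c-5p were later in conditioned medium than U6, by 7.94, 10.67 and 7.12 cycles. Whether U6 is a stable reference between media with and without embryos was not tested.

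**Figure D4:**
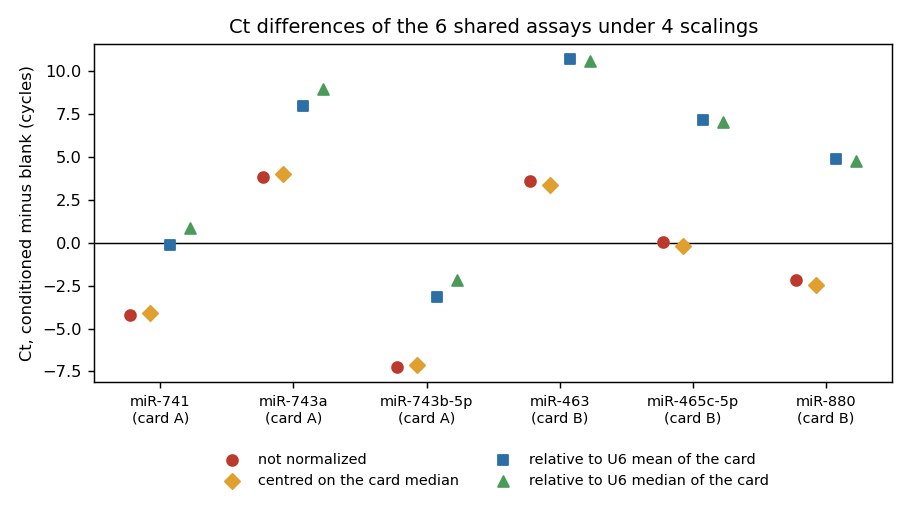
The vertical axis gives the Ct in conditioned medium minus that in blank medium, in cycles, for the 6 members detected in both media; circles are not normalized, diamonds are centred on the median of the shared assays of the card, and squares and triangles are relative to the mean and the median of the 4 U6 wells of the card. miR-743b-5p is below 0 under all 4 scalings, miR-743a and miR-463 are above 0 under all 4, and miR-741, miR-880 and miR-465c-5p change sign.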

How the data were processed

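Spent and blank culture medium were measured on TaqMan rodent array cards A and B, version 3.0, with 1 set of cards for each, after lysis without RNA extraction, reverse transcription and 12 cycles of pre-amplification. The values deposited by the authors are non-normalized Ct values per well, a scale that runs against log2 of the template, with undetermined wells given as text. How threshold and baseline were set is not given in the sources used here. A fold change per assay, which the authors calculated between both media, was not used. The height of the fluorescence signal, the second criterion of the methods, was not analysed here, and detection rests on a Ct below 35 alone. Pre-amplified product was not diluted, which moves Ct values earlier.

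Assays were chosen by name, and the members and comparison lists were chosen with earlier results of these data known. All 25 members are accounted for by name; from the comparison lists, only assays that share a hairpin with a member, or are miR-34b, miR-34c or miR-449, are named. Of 768 wells per sample, 18 control wells were left out of counts. Mature sequences and positions are from RefSeq (GRCm38.p6); the deposited values name no build. No test was run with 1 sample per medium, and the number of wells limits the precision. Error between wells was taken from U6 wells, and assays sharing a name were compared within a sample. Counting was checked on 750 simulated assays, with 3 of 3 classes recovered. Alternatives were Ct limits of 32 and 38, any Ct, a Ct earlier than 15 taken as not detected, # or rat-named assays added, and 3 other scalings. Scripts ran in Python 3.11.15 with numpy 2.4.6, pandas 2.3.3 and matplotlib 3.10.9.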

Additional observations from a re-analysis of the deposited data

Results flagged for a closer look

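Among the 4 # arm and 9 rat-named assays of the same numbers, 2 were detected in conditioned medium and either not detected in blank medium or more than 5 cycles later there. Of all 750 assays, 104 (13.9%) were detected in conditioned medium only. Of the 176 assays detected in both media, 19 (10.8%) were more than 5 cycles earlier in conditioned medium. Such calls were therefore common on the array. mmu-miR-470# was earlier in conditioned medium too, by 4.50 cycles, which is under that limit. rno-miR-871 had a Ct of 32.4 in conditioned medium and was undetermined in blank medium, and mmu-miR-871 was undetermined in both. rno-miR-465 had a Ct of 16.3 in conditioned medium and 22.9 in blank medium, earlier in conditioned medium by 6.62 cycles, and mmu-miR-465 was undetermined in both. Relative to the mean of U6 on card B, the difference of rno-miR-465 was 0.45 cycles. Each value is from 1 well, and the source of these signals was not tested.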

How the results depend on the processing

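No paired analysis was possible because the study made 1 sample per medium and no test was run. For members detected in conditioned medium only, limits of Ct 32 and Ct 38, or no limit, each gave 2 in place of 1: a limit of 32 added miR-743b-5p and a later limit added miR-878-3p. The shares of all 750 assays in conditioned medium only were then 12.0%, 15.6% and 15.2%. Members in blank medium only rose likewise, from 2 to 3 at each setting, against 5.33%, 6.53% and 6.80% of all assays. Members in both media fell from 6 to 4 at a limit of 32, against 20.8% of all assays. With rat-named assays added, 12 of 34 assays were detected in conditioned medium, 13 in blank medium, 10 in both and 2 in conditioned medium only. The matching shares of all 750 assays were 37.3%, 29.1%, 23.5% and 13.9%. Leaving out a Ct earlier than 15 changed no count of members, although it would remove mmu-miR-470#, which is not a member. Adding the # arms gave counts within 1.5 times those of the members alone. Relative to the U6 mean of the card, the Ct differences were -0.14 for miR-741, 7.94 for miR-743a, -3.16 for miR-743b-5p, 10.67 for miR-463, 7.12 for miR-465c-5p and 4.89 for miR-880. Relative to the U6 median they were 0.87, 8.95, -2.15, 10.56, 7.01 and 4.78 in the same order, so that miR-741 and miR-880 turned from earlier to later. Centring on the card median moved every difference by less than the spread of U6 wells, although miR-465c-5p passed from 0.05 to -0.20. These shifts follow from the U6 difference that is subtracted.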
